A study of Mus musculus with 12 samples.

Results

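The 9 mRNAs described here belong to the integrated stress response and were taken by gene symbol from the 55376 genes of the count file. They encode transcription factors (Atf4, Atf5 and Ddit3), the stress-induced subunit of the eIF2 phosphatase (Ppp1r15a) and products of ATF4 target genes (Trib3, Chac1, Asns, Sesn2 and Ddit4). All 9 were among the 12224 genes tested.

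The integrated stress response is the common answer of cells to several stresses, from misfolded protein in the endoplasmic reticulum to missing amino acids. Kinases that sense these stresses phosphorylate the initiation factor eIF2, general initiation of translation drops, and a small set of mRNAs with upstream open reading frames (uORFs, short reading frames ahead of the main one) is translated better than before. The best known of them encodes the transcription factor ATF4, which binds the genes of amino acid supply and of the later stress response and switches them on. Under unstressed conditions ribosomes that have read the first uORFs of Atf4 mRNA mostly restart at a last uORF that runs past the main start codon, so that the mRNA is present while little of its protein is made.

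The RNA came from 4T1, a cancer cell line of the mouse mammary gland. The mock cells carried the empty vector after stable transfection, and the METTL7A1 cells carried the full-length Mettl7a1 cDNA behind a CMV promoter. G418 was used for selection, and whether each line was 1 clone or a pool is not stated. METTL7A1 is a putative methyltransferase, and the study asked whether its expression alters the translation of particular mRNAs. Cells received cycloheximide (0.1 mg/ml, 5 min), which arrests ribosomes where they are, and their cytoplasm was separated on sucrose gradients. RNA of fractions 3 to 7, which hold free ribosomal subunits and monosomes, is called sub-polysomal, and that of fractions 8 to 11 is called polysomal. Each of the 4 groups had 3 replicates, with the letters A, B and C for mock and D, E and F for METTL7A1 cells. No stressor is named in the labels.

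Library totals lay between 1817520 counts, in the sub-polysomal RNA of mock replicate A, and 6966156 counts. Counts of Mettl7a1 ran from 4 to 24 in mock and from 989 to 2436 in METTL7A1 cells. The 6 epithelial markers Epcam, Cdh1, Krt8, Krt18, Krt19 and Cldn7 summed to between 2269 and 4803 CPM (the share of a library's counts, scaled so that each library has the same effective total) in a library, highest in METTL7A1 polysomal RNA (4224 to 4803 CPM, against 2736 to 3222 CPM in mock), and their part in the results was not tested. The leukocyte, endothelial and adipocyte markers reached at most 0.822 CPM in sum for any 1 of these cell types and libraries, with Cd3e, Adgre1 and Kdr at 0 in all 12. The 3 fibroblast markers summed to at most 5.87 CPM, with Lum at 0. The study describes its gradients as independent and made on biological triplicates, while the labels do not say that these libraries were separate cultures, so the p-values measure the spread between these samples.

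The name of the group speaks of upstream reading frames, and the annotated leaders (the stretch before the main start codon) were searched for them. In the principal GENCODE M21 transcript, 6 of the 9 mRNAs had at least 1 upstream ATG, against 51.9% of the 10467 tested genes with a leader of at least 20 nt. Trib3, Chac1 and Ddit4 had none. An upstream reading frame that ran into the coding sequence (CDS) was present in Atf4 and Atf5, and in 16.6% of those genes. The start sites of the upstream frames are given here because they are the elements for which these mRNAs are known. Each is given with the 6 bases before the upstream ATG, and the ATG and, where the reading frame is short enough to be shown whole, its stop codon are in capitals.
Atf4 uORF 1: tctctcATGgggcct
Atf4 uORF 2: gccaccATGgcgtatTAG
Atf4 uORF 3: taagccATGgcgctc
Atf5 uORF 1: cgcgcaATGgctctgTAG
Atf5 uORF 2: gccgccATGgagtcc
Ddit3 uORF 1: tatatcATGttgaag
Ddit3 uORF 2: ttgaagATGagcggg
Ppp1r15a uORF 1: tggacgATGttggcg
Ppp1r15a uORF 2: gattacATGcgatat
Ppp1r15a uORF 3: ggcgacATGaacccg
Asns uORF 1: agccacATGatgaaa
Asns uORF 2: cacatgATGaaactt
Sesn2 uORF 1: gtggggATGgtgagg

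Atf4 and Atf5 shared part of their layout, a reading frame of 3 codons followed by a longer one out of frame with the protein. In Atf4 (chr15:80255184-80257541, plus strand, GRCm38) the leader was 594 nt long. The short frame began 196 nt before the main start, and the last frame, of 59 codons, began 97 nt before it and overlapped the CDS by 83 nt. In Atf5 (chr7:44812256-44816658, minus strand) the leader was 373 nt long, the short frame began 252 nt before the main start, and the second frame had 58 codons and overlapped the CDS by 56 nt. All 4 of these upstream ATGs had a purine 3 bases before and a G directly after the ATG, the bases that favour initiation. At the main start codons of both mRNAs the purine was present and the G was not.
Atf4 main start: cacaacATGaccgag
Atf5 main start: acagccATGtcactc

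The first upstream ATG of Atf4, a frame of 36 codons, had no purine at the first of these places. Ddit3 (chr10:127290774-127296288, plus strand) held 1 upstream frame with 2 possible starts in the same frame, of 34 and 31 codons, that ended 26 nt before the main start. Ppp1r15a (chr7:45522917-45526268, minus strand) held 3 frames of 45, 34 and 26 codons, and the last of them ended 23 nt before the main start. Sesn2 (chr4:132492032-132510501, minus strand) held a frame of 22 codons in a leader of 348 nt. The RefSeq transcript of Sesn2 starts 45 nt further downstream, which puts the ATG of this frame only 3 nt after that start. The pair of ATGs of Asns (chr6:7675169-7693254, minus strand) depends on the annotation, since the RefSeq transcript starts 45 nt further downstream, and both ATGs lie 24 and 21 nt ahead of that start. Atf5 has a second RefSeq start 1000 nt downstream of the first, which leaves out both of its upstream ATGs, and the counts per gene do not separate the transcripts.

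**Figure D1:**
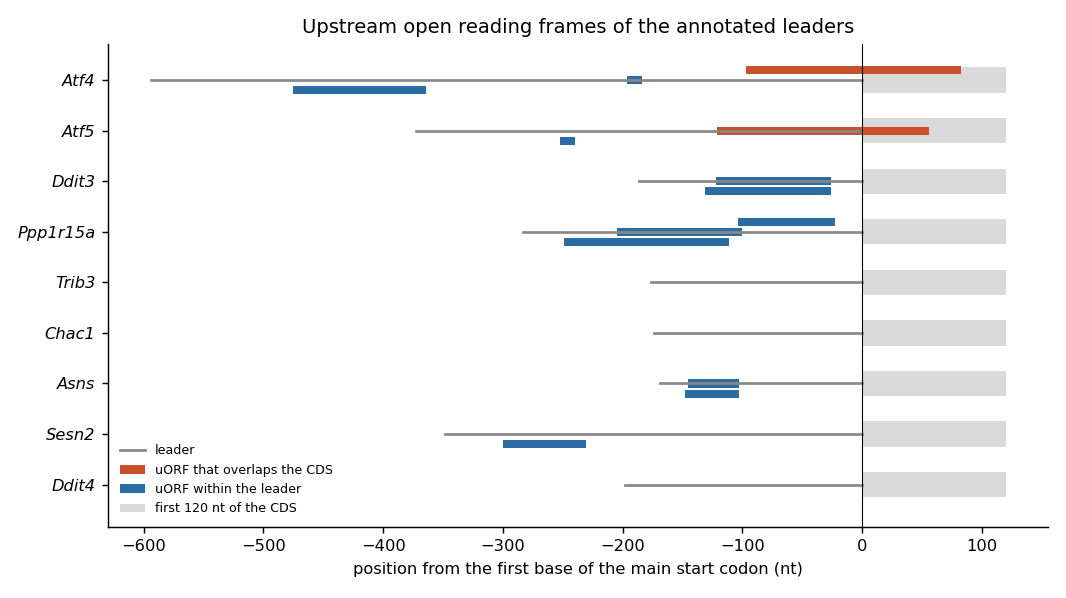
Leaders of the 9 mRNAs in the GENCODE M21 annotation, with position from the first base of the main start codon in nt on the horizontal axis; orange bars are upstream reading frames that overlap the CDS, blue bars are frames that end before it, and grey boxes are the first 120 nt of the CDS. Orange bars are seen for Atf4 and Atf5, and Trib3, Chac1 and Ddit4 carry no bar.

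Levels differed widely among the 9 mRNAs. Per length, Atf4 stood highest in each group, with 710 ± 176 CPM per kb (SD, n = 3) in mock and 1125 ± 71.2 CPM per kb (SD, n = 3) in METTL7A1 sub-polysomal RNA. Atf5 came next in both sub-polysomal groups, at 42.6 ± 12.2 CPM per kb (SD, n = 3) in mock and 104 ± 3.78 CPM per kb (SD, n = 3) in METTL7A1 cells. In mock sub-polysomal RNA the next 3 places were held by Ddit4 (26.8 ± 7.45 CPM per kb, SD, n = 3), Chac1 (26.2 ± 4.48 CPM per kb, SD, n = 3) and Ddit3 (25.1 ± 5.42 CPM per kb, SD, n = 3). These 3 lay within each other's spread. Sesn2 was lowest in every group, between 1.57 and 2.23 CPM per kb in the group means. In polysomal RNA the second place passed from Atf5 to Asns, which had 36.9 ± 3.10 CPM per kb (SD, n = 3) in mock and 31.8 ± 4.31 CPM per kb (SD, n = 3) in METTL7A1 cells. CPM are shares of a library, so that more of an mRNA and less of the other RNA of that pool cannot be told apart.

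**Figure D2:**
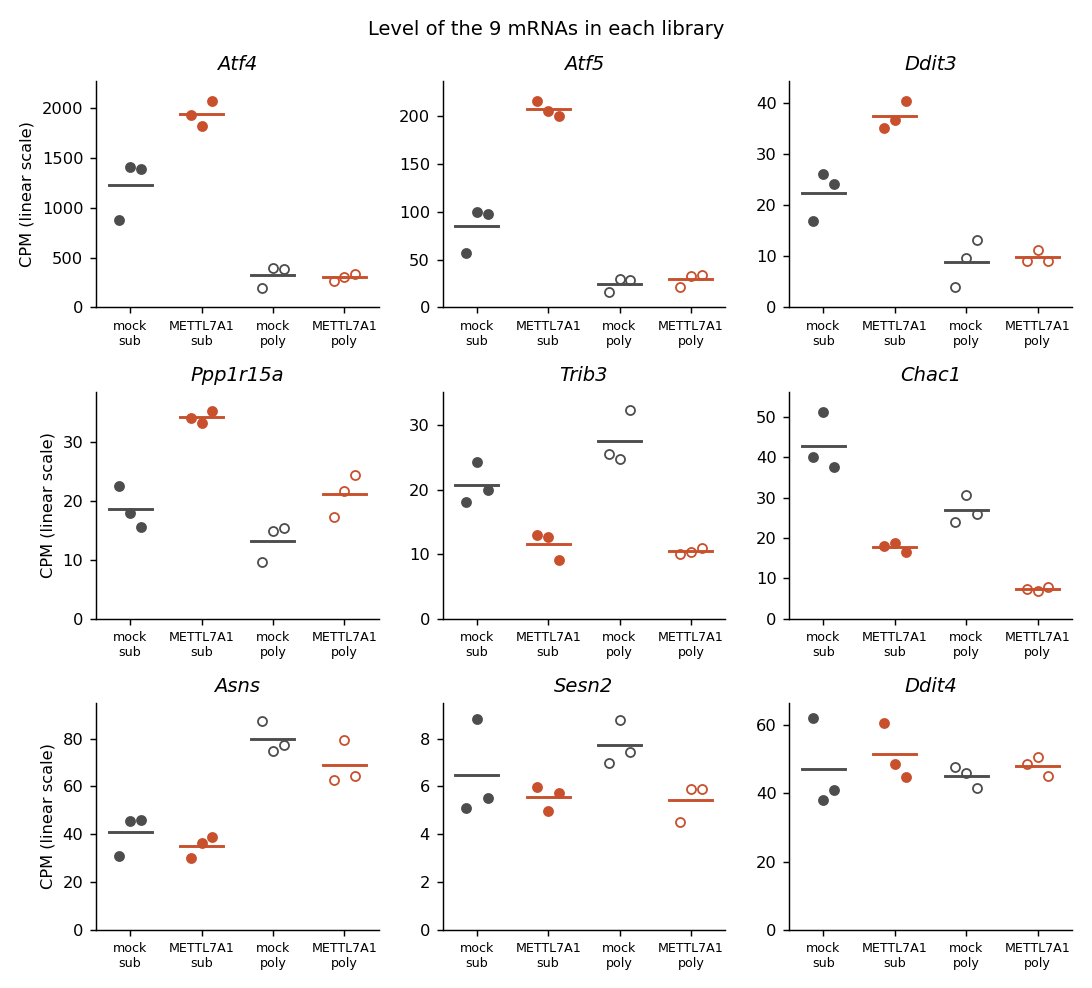
Level of each of the 9 mRNAs in CPM (linear vertical axis from 0) in the 12 libraries; each point is 1 library, filled for sub-polysomal (sub) and open for polysomal (poly) RNA, and lines are group means of 3. Atf4, Atf5 and Ddit3 are high in sub-polysomal and low in polysomal RNA, Asns is the reverse, and Trib3 and Chac1 are lower in METTL7A1 than in mock libraries of either pool.

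The first question was where in the gradient these mRNAs lay. The 3 transcription factor mRNAs were lower in polysomal than in sub-polysomal RNA of both lines, by 2.5 to 3.77 times in mock and 3.81 to 7.03 times in METTL7A1 cells as ratios of the group means. Chac1 was lower as well and Asns was higher, and with these scaling factors Sesn2 and Ddit4 did not pass the test in either line. A call required an adjusted p below 0.01 over all genes tested and a log2 change beyond 1.5, and a second, wider rule required an adjusted p below 0.05 with no limit on the change. By the first rule 2 of the 9 (Atf4 and Atf5) were called lower in mock and 3 of the 9 (with Ddit3) in METTL7A1 cells, where 6.86% and 10.3% of all genes were called lower. By the second rule 4 were lower and 1 was higher in mock, against 23.7% and 23.3% of all genes. In METTL7A1 cells 5 were lower and 1 was higher, against 29.3% and 30.0% of all genes. The median log2 change of the 9 was -0.44 in mock and -0.70 in METTL7A1 cells, and that of all genes tested was 0.05 and 0.06.

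Atf4 mRNA had 875, 1409 and 1393 CPM in the sub-polysomal RNA of mock replicates A, B and C. Their polysomal RNA held 199.6, 393 and 382 CPM. Mock replicate A was the lowest in either pool, and the pools did not overlap. In METTL7A1 cells the sub-polysomal RNA of replicates D, E and F held 1929, 1824 and 2069 CPM, and the polysomal RNA 269, 309 and 339 CPM. Here the pools lay further apart and the replicates closer together. Between the pools, polysomal over sub-polysomal, the log2 change was -1.92 in mock cells (standard error 0.23; edgeR's quasi-likelihood test, adjusted p = 4.55e-06). It was -2.67 in METTL7A1 cells (standard error 0.24; adjusted p = 8.36e-08 in edgeR). Of all genes tested, 5.36% in mock and 3.45% in METTL7A1 cells had a value at or below that of Atf4.

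Atf5, a bZIP factor close to ATF4 whose mRNA shares the short and the overlapping upstream frame but has no counterpart of the first frame of Atf4, followed the same pattern at a lower level. It had 57.0, 100.1 and 97.7 CPM in mock sub-polysomal RNA and 15.8, 29.6 and 28.4 CPM in mock polysomal RNA. In METTL7A1 cells it had 215, 205 and 200.4 CPM in sub-polysomal and 21.1, 33.0 and 34.2 CPM in polysomal RNA. Mock replicate A was again the lowest of its group in both pools, and no polysomal library reached a sub-polysomal one. The pools differed by a log2 change of -1.81 in mock (standard error 0.23, adjusted p = 7.67e-06 from edgeR) and -2.82 in METTL7A1 cells (standard error 0.23, adjusted p = 5.13e-08 from edgeR).

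Ddit3 encodes CHOP, a bZIP factor that acts late in the response and promotes cell death. It was found at 16.9, 26.1 and 24.1 CPM in mock sub-polysomal RNA and at 4.10, 9.62 and 13.2 CPM in the polysomal RNA of the same replicates. METTL7A1 cells had 35.1, 36.7 and 40.4 CPM in the former and 9.04, 11.3 and 9.10 CPM in the latter. The pools did not overlap in either line, but the mock polysomal libraries differed by more than 3 times among themselves, on 30 to 106 counts. This gave a log2 change of -1.35 in mock (standard error 0.27, adjusted p = 0.000521 from edgeR) and -1.93 in METTL7A1 cells (standard error 0.26, adjusted p = 4.39e-06 from edgeR). Without mock replicate C the mock value was -1.70 and was called.

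Ppp1r15a encodes GADD34, which brings protein phosphatase 1 to eIF2 and so closes the response. The sub-polysomal level was 22.6, 17.9 and 15.6 CPM in mock and 34.2, 33.2 and 35.4 CPM in METTL7A1 cells. In polysomal RNA it was 9.56, 14.8 and 15.4 CPM in mock and 17.3, 21.7 and 24.4 CPM in METTL7A1 cells. The highest mock polysomal library stood just under the lowest mock sub-polysomal one, and the METTL7A1 pools were further apart. Between the pools there was a log2 change of -0.44 in mock cells (standard error 0.20, adjusted p = 0.0814 from edgeR) and -0.70 in METTL7A1 cells (standard error 0.18, adjusted p = 0.00258 from edgeR). The mock value moved to -0.18 without mock replicate A and to -0.70 without mock replicate C, and only in the latter case did it pass the wider rule (adjusted p = 0.0306 from edgeR).

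Among the ATF4 targets, Chac1, which encodes an enzyme that degrades glutathione, had 40.1, 51.3 and 37.5 CPM in mock sub-polysomal and 23.9, 30.8 and 25.9 CPM in mock polysomal RNA. In METTL7A1 cells it had 17.9, 18.9 and 16.5 CPM in the sub-polysomal and 7.40, 6.93 and 7.92 CPM in the polysomal pool. The polysomal libraries were below all sub-polysomal ones of the same line. For Chac1 the log2 change between the pools was -0.68 in mock (standard error 0.15, adjusted p = 0.00124 from edgeR) and -1.26 in METTL7A1 cells (standard error 0.18, adjusted p = 1.15e-05 from edgeR).

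Asns encodes asparagine synthetase and was the only one of the 9 that passed the wider rule upwards in both lines with every scaling tried. It had 31.0, 45.6 and 46.0 CPM in mock sub-polysomal and 87.4, 74.8 and 77.2 CPM in mock polysomal RNA. METTL7A1 cells had 30.2, 36.2 and 39.0 CPM in the sub-polysomal and 62.6, 79.5 and 64.2 CPM in the polysomal pool. All 6 polysomal libraries lay above all 6 sub-polysomal ones. For Asns the log2 change between the pools was 0.94 in mock (standard error 0.16, adjusted p = 0.000143 from edgeR) and 0.96 in METTL7A1 cells (standard error 0.16, adjusted p = 6.22e-05 from edgeR).

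Trib3, Sesn2 and Ddit4 did not pass either rule between the pools with scaling factors computed over all 12 libraries. Trib3, a pseudokinase that restrains ATF4 and CHOP, had a log2 change of 0.40 in mock (standard error 0.17, adjusted p = 0.0609 from edgeR) and -0.14 in METTL7A1 cells (standard error 0.19, adjusted p = 0.547 from edgeR). Its mock polysomal libraries (25.5, 24.7 and 32.3 CPM) were all above the mock sub-polysomal ones (18.1, 24.2 and 19.9 CPM). Without mock replicate B the mock value was 0.59 and passed the wider rule (adjusted p = 0.0332 from edgeR). Sesn2 encodes a sensor of leucine that restrains mTORC1, and had 5.08, 8.81 and 5.53 CPM in mock sub-polysomal and 6.96, 8.80 and 7.45 CPM in mock polysomal RNA. Its METTL7A1 libraries lay between 4.52 and 5.97 CPM in both pools. Its log2 change was 0.24 in mock and -0.03 in METTL7A1 cells, with 95% confidence intervals of -0.26 to 0.74 and -0.55 to 0.50. Ddit4 encodes REDD1, another inhibitor of mTORC1, and had 62.1, 38.1 and 41.1 CPM in mock sub-polysomal and 47.8, 46.0 and 41.4 CPM in mock polysomal RNA. In METTL7A1 cells it had 60.7, 48.6 and 45.0 CPM in the sub-polysomal and 48.6, 50.6 and 45.1 CPM in the polysomal pool, and the pools of both lines overlapped. Its log2 change was -0.03 in mock and -0.09 in METTL7A1 cells, with intervals of -0.39 to 0.33 and -0.44 to 0.26. With scaling factors computed within each pool, which moved the median of all genes by 0.42 in mock and 0.43 in METTL7A1 cells, the values of Trib3 and Sesn2 in METTL7A1 cells and of Ddit4 in both lines turned positive. On that scale Trib3 (0.82, adjusted p = 0.000335 from edgeR) and Sesn2 (0.67, adjusted p = 0.0191 from edgeR) passed the wider rule upwards in mock cells, so that 3 of the 9 were higher and 3 lower there. By the same rule and scaling 7614 of the 12224 genes passed in either direction in mock cells, and the median of all genes was 0.48. Atf4 (-1.497) and Atf5 (-1.39) were not called in mock cells, Ddit3 (-1.49) was not called in METTL7A1 cells, and Chac1 (-0.25, adjusted p = 0.147 from edgeR) did not pass the wider rule in mock cells, nor did Ppp1r15a (-0.27, adjusted p = 0.183 from edgeR) in METTL7A1 cells. With libraries scaled to the Actb count Chac1 (-1.502) was called in METTL7A1 cells.

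**Figure D3:**
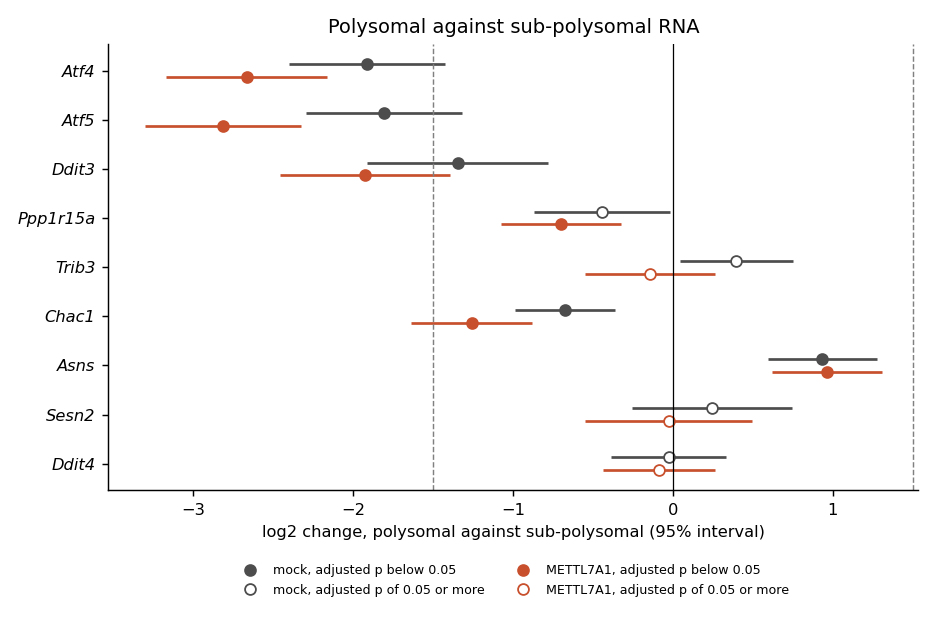
Log2 change, polysomal over sub-polysomal RNA, for the 9 mRNAs, with 95% confidence intervals from edgeR, in mock (grey) and METTL7A1 cells (orange); filled points have an adjusted p below 0.05 and dashed lines mark a log2 change of 1.5 either way. Atf4 and Atf5 lie beyond the lower line in both lines, and Asns lies near 0.94 in mock and 0.96 in METTL7A1 cells.

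Short coding sequences hold fewer ribosomes, and the position of an mRNA in the gradient varied with CDS length across all genes. Among tested genes with a leader of at least 20 nt, the median log2 change in mock cells was -0.86 for the 1389 genes with a CDS under 600 nt and 0.50 for the 3036 genes with a CDS of at least 2000 nt. Each of the 9 mRNAs was therefore set beside the genes whose CDS was within 20% of its own length. The 2149 genes around Atf4 (CDS of 1047 nt) had a median of 0.04 in mock and 0.05 in METTL7A1 cells, where Atf4 had -1.92 and -2.67. The 1675 genes around Atf5 (849 nt) had a median of -0.07 in mock and -0.10 in METTL7A1 cells, where Atf5 had -1.81 and -2.82. Both mRNAs lay well below the middle 50% of their neighbours in length, whose lower quartiles were -0.39 and -0.49 in mock cells. Ddit3 has the shortest CDS of the 9 (504 nt). Its 880 neighbours were themselves low, with a median of -0.54 and a lower quartile of -1.00 in mock cells, and Ddit3 lay below that quartile at -1.35. Ppp1r15a has the longest CDS (1971 nt), and its value of -0.44 in mock stood against a median of 0.28 and a lower quartile of -0.13 among its 2085 neighbours. Chac1 (669 nt) lay within the middle 50% of its 1326 neighbours in mock cells (-0.71 to 0.16) and below it in METTL7A1 cells (-0.92 to 0.14). Asns (1683 nt) lay above the upper quartiles of its 2338 neighbours, which were 0.55 in mock and 0.71 in METTL7A1 cells. Trib3 (1062 nt) lay just above the upper quartile of its 2213 neighbours in mock (0.38) and within their middle 50% in METTL7A1 cells (-0.50 to 0.52). Sesn2 (1440 nt) and Ddit4 (687 nt) lay within the middle 50% of their neighbours in both lines.

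**Figure D4:**
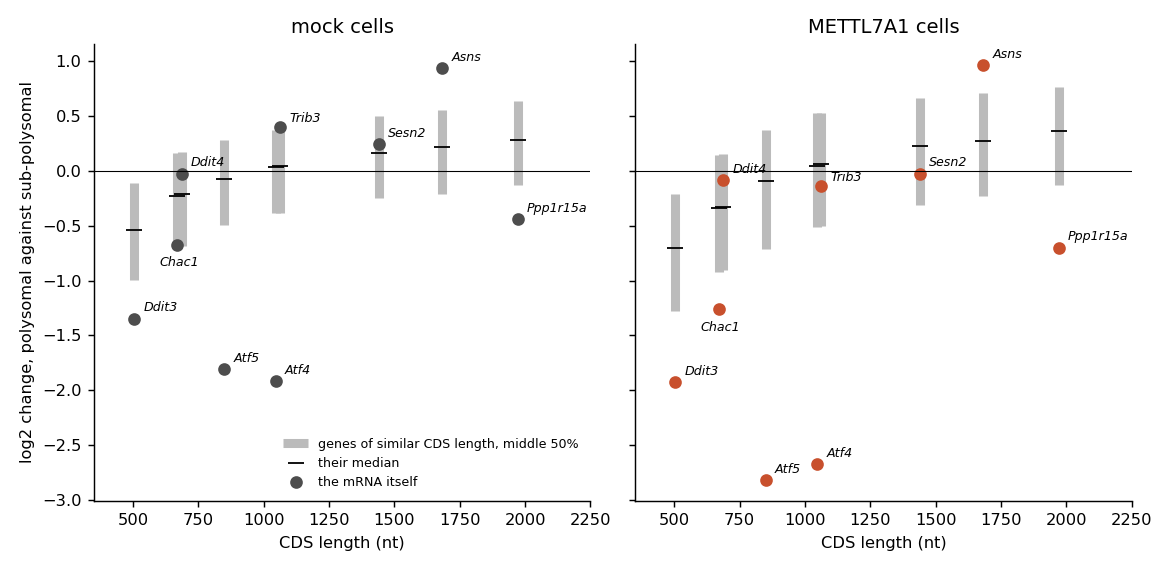
Log2 change, polysomal over sub-polysomal RNA, against CDS length in nt, in mock (left) and METTL7A1 cells (right); points are the 9 mRNAs, grey bars span the middle 50% of tested genes with a CDS within 20% of that length, and dashes are their medians. Atf4, Atf5, Ddit3 and Ppp1r15a lie below the bars and Asns lies above them in both lines.

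Genes were also grouped by their number of upstream ATGs, without matching for CDS length, and the medians differed little. The median log2 change in mock cells was 0.11 over the 5037 genes without an upstream ATG, 0.12 over the 2434 with 1, 0.16 over the 1144 with 2 and 0.14 over the 1852 with 3 or more. In METTL7A1 cells the same medians were 0.15, 0.16, 0.14 and 0.11. The 1735 genes with a reading frame that overlapped the CDS had a median of 0.11 in mock and 0.08 in METTL7A1 cells, and the 8732 without one had 0.12 and 0.16. These medians are descriptions, with no test, and whether CDS length hid a difference between the classes was not tested.

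The genes whose log2 CPM followed that of Atf4 most closely over the 12 libraries were Dgcr6, Ppp1r14b, Usf2, Rps27 and Banf1, with Pearson's r between 0.996 and 0.997 among 8168 genes with a mean of at least 10 CPM. All 5 were lower in polysomal than in sub-polysomal RNA of both lines, and the points share library and depth. Rps27, which encodes a small ribosomal protein, had log2 changes between the pools of -2.28 in mock and -3.10 in METTL7A1 cells. Dgcr6 had -2.01 and -2.69. Of these 5 genes, Dgcr6, Usf2 and Rps27 had no upstream ATG in the annotated leader, Ppp1r14b had 1 and Banf1 had 2. Their CDS lengths were 603 nt (Dgcr6), 441 nt (Ppp1r14b), 1038 nt (Usf2), 252 nt (Rps27) and 267 nt (Banf1), against 1047 nt for Atf4. Among the members, Atf5 had an r of 0.978 with Atf4 and Ddit3 one of 0.966, which placed them at ranks 281 and 464, and Asns had one of -0.88.

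The second comparison was that of METTL7A1 with mock cells within each pool. In sub-polysomal RNA the mRNAs of the transcription factors and of Ppp1r15a were higher in METTL7A1 cells, and those of the targets Trib3 and Chac1 were lower. In polysomal RNA Ppp1r15a alone was higher, while Trib3 and Chac1 were lower again and by a larger log2 change. In sub-polysomal RNA 0 of the 9 passed the first rule in edgeR, as in DESeq2 and limma-voom, and 2.76% of all genes did. By the wider rule 4 were higher and 2 were lower, against 16.8% and 14.5% of all genes, and 6 of the 9 had an unadjusted p below 0.05, against 42.3% of all genes. In polysomal RNA 1 of the 9 (Chac1) was called, against 2.13% of all genes. There 1 was higher and 2 were lower by the wider rule, against 9.69% and 8.28% of all genes. The 2 comparisons share no library, but both set the same pair of cell lines against each other.

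Atf4 was higher in METTL7A1 sub-polysomal RNA by a log2 change of 0.66 (standard error 0.23; adjusted p = 0.0321 in edgeR). All 3 METTL7A1 libraries lay above the 3 mock libraries, the nearest being 1824 and 1409 CPM. In polysomal RNA the log2 change was -0.09 (standard error 0.23; adjusted p = 0.83 in edgeR; 95% confidence interval -0.56 to 0.38), and the METTL7A1 libraries lay inside the range of the mock ones. The sub-polysomal change was 0.45 without mock replicate A. The adjusted p was above 0.05 without METTL7A1 replicate D, E or F, at most 0.0901.

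Atf5 had the largest rise of the 9, with a log2 change of 1.26 in sub-polysomal RNA (standard error 0.22, adjusted p = 0.000356 from edgeR). The lowest METTL7A1 library, at 200.4 CPM, held about 2 times the level of the highest mock library, at 100.1 CPM. In polysomal RNA the log2 change was 0.25 (standard error 0.23, 95% confidence interval -0.23 to 0.74), and the groups overlapped. Scaled to the Actb count, the sub-polysomal change was 1.54 and was called.

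Ddit3 rose in sub-polysomal RNA by a log2 of 0.71 (standard error 0.25, adjusted p = 0.0406 from edgeR) and had a log2 change of 0.13 (standard error 0.27) in polysomal RNA. The 3 METTL7A1 sub-polysomal libraries lay above the mock ones. The polysomal ones lay within the mock range of 4.10 to 13.2 CPM. The rise did not pass the wider rule without mock replicate B or without METTL7A1 replicate D, E or F (adjusted p at most 0.117), nor with limma-voom (adjusted p = 0.0537).

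Ppp1r15a rose in both pools. The log2 change was 0.92 in sub-polysomal (standard error 0.20, adjusted p = 0.00185 from edgeR) and 0.66 in polysomal RNA (standard error 0.18, adjusted p = 0.0164 from edgeR). Every METTL7A1 library stood above every mock library of its pool. In polysomal RNA the adjusted p was above 0.05 without METTL7A1 replicate E or F, at most 0.0962.

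Chac1 fell in both pools, and in polysomal RNA it was the mRNA with the largest change of the 9. The log2 change was -1.27 in sub-polysomal (standard error 0.17, adjusted p = 2.31e-05 from edgeR) and -1.86 in polysomal RNA (standard error 0.17, adjusted p = 3.31e-07 from edgeR). The group means were 2.42 and 3.62 times lower. No METTL7A1 library reached the lowest mock library of its pool, 37.5 CPM in the sub-polysomal and 23.9 CPM in the polysomal pool. Of all genes tested, 1.66% had a polysomal change at or below that of Chac1.

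Trib3 fell from 18.1, 24.2 and 19.9 CPM in mock to 12.9, 12.7 and 9.09 CPM in METTL7A1 sub-polysomal RNA. In polysomal RNA it fell from 25.5, 24.7 and 32.3 CPM to 10.0, 10.3 and 10.9 CPM. The METTL7A1 libraries lay below the mock libraries in both pools, and the 3 polysomal METTL7A1 libraries were close together. The log2 change was -0.87 in sub-polysomal (standard error 0.20, adjusted p = 0.00248 from edgeR) and -1.40 in polysomal RNA (standard error 0.17, adjusted p = 9.2e-06 from edgeR).

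Asns, Sesn2 and Ddit4 passed neither rule between the lines. The log2 change of Asns was -0.24 in sub-polysomal and -0.21 in polysomal RNA, with 95% confidence intervals of -0.60 to 0.12 and -0.53 to 0.11, and with Actb scaling the sub-polysomal values of Asns and Sesn2 were just above 0. Sesn2 had 4.52, 5.91 and 5.90 CPM in METTL7A1 polysomal RNA, all below the 3 mock libraries, and a log2 change of -0.51 there (standard error 0.21, adjusted p = 0.11 from edgeR) on 33 to 64 counts. Ddit4 had a log2 change of 0.16 in sub-polysomal and 0.10 in polysomal RNA, with intervals of -0.21 to 0.52 and -0.25 to 0.44.

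**Figure D5:**
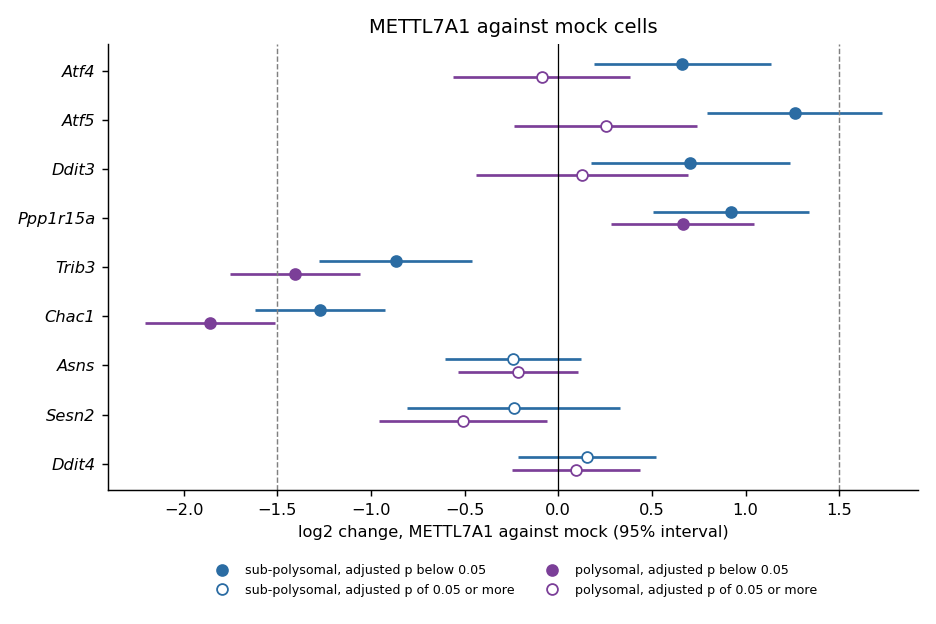
Log2 change of the 9 mRNAs in METTL7A1 against mock cells, with 95% confidence intervals from edgeR, in sub-polysomal (blue) and polysomal RNA (purple); filled points have an adjusted p below 0.05 and dashed lines mark a log2 change of 1.5 either way. Atf4, Atf5, Ddit3 and Ppp1r15a lie to the right in sub-polysomal RNA, and Trib3 and Chac1 lie to the left in both pools.

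The third comparison asked whether the difference between the pools differed between the lines, in which the total level of an mRNA cancels. This log2 shift was below 0 for 8 of the 9 mRNAs, and none passed the test over all genes (0 of 9 by either rule in edgeR and limma-voom, 0 of the 4 to which DESeq2 gave an adjusted p, and 0.0% of all genes called in edgeR). It was most negative for Atf5, at -1.01 (standard error 0.32; unadjusted p = 0.00541 and adjusted p = 0.147 in edgeR; 95% confidence interval -1.68 to -0.34). Atf4 had -0.75 (standard error 0.32; adjusted p = 0.267 in edgeR; 95% confidence interval -1.42 to -0.08). Chac1 had -0.59, Ddit3 -0.58 and Trib3 -0.54, with adjusted p of 0.24, 0.471 and 0.321 from edgeR. The values of Sesn2 (-0.27), Ppp1r15a (-0.26), Ddit4 (-0.06) and Asns (0.03) were smaller than their standard errors. At an unadjusted p below 0.05 there were 3 of the 9 (Atf4, Atf5 and Chac1), all negative, against 8.93% of all genes with a negative and 6.7% with a positive shift at that level. Of all genes tested, 50.6% had a negative shift. The SD of the log2 change between the pools over all genes was 0.98 in mock and 1.15 in METTL7A1 cells. Whether this wider spread bears on the shifts of the members was not tested. Without mock replicate A the adjusted p of Atf5 was 0.0497 from edgeR, with no filter on low counts it was 0.0105, and without METTL7A1 replicate D it was 0.52. Over all genes, 104, 159 and 0 passed the wider rule for the shift in these settings. With DESeq2 368 of all genes passed it, and in the main fit 0 did.

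The promoters of the 9 genes were searched for TGATGNAAN on both strands, the letters of the element through which ATF4 with a C/EBP partner acts on its target genes. The windows ran from 250 bases before to 50 bases after the RefSeq start (GRCm38.p6). The letters were present in Chac1, Trib3 and Asns, 3 of the 9, and in 4.5% of 27025 genes. They are shown in capitals in windows of 30 bases on the strand of the gene, since Chac1 and Trib3 are the targets that fell in METTL7A1 cells. In Chac1 and Trib3 the match is on the opposite strand.
Chac1, chr2:119351037-119351066, plus strand: ccttccctgccGTTGCATCActcctgccag
Trib3, chr2:152344029-152344058, minus strand: attagctcaggTTTACATCAgccgggcggg
Asns, chr6:7693214-7693243, minus strand: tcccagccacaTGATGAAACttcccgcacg
In Chac1 the match begins 194 bases before the start, in Asns 23 bases before it and in Trib3 13 bases after it. The match in Asns overlaps the pair of ATGs counted above as the starts of its upstream frames in the longer GENCODE transcript. A match of letters is a description of the sequence, and no binding was measured in these libraries.

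Other ATF4 target genes were taken from lists. Of 22 genes of amino acid supply, 19 were tested. In METTL7A1 against mock cells 8 were lower and 2 higher in sub-polysomal RNA by the wider rule, against 14.5% and 16.8% of all genes, with a median log2 change of -0.48. In polysomal RNA 9 were lower and 2 higher, against 8.28% and 9.69% of all genes, with a median of -0.44. Mthfd2, a mitochondrial enzyme of folate metabolism, fell by 1.29 on the log2 scale in sub-polysomal (standard error 0.14, adjusted p = 3.3e-06 from edgeR) and by 0.70 in polysomal RNA (standard error 0.13, adjusted p = 0.000911 from edgeR). Gpt2, which makes alanine, had log2 changes of -1.37 and -1.45, and Mthfd1l, another folate enzyme, of -1.42 and -0.75, all past the wider rule. The glycine transporter Slc6a9 fell in polysomal RNA (-1.31, adjusted p = 0.000304 from edgeR) and had -0.73 in sub-polysomal RNA (adjusted p = 0.0779 from edgeR). The cystine transporter Slc7a11, named after its value was seen, was called by the first rule in polysomal RNA (-1.52, adjusted p = 0.00606 from edgeR). The genes that rose in both pools, named here after their values were seen, were Shmt2 (0.62 and 0.58) and the glutamine transporter Slc1a5 (0.72 and 0.57). When libraries were scaled to the Actb count, which moved the median of all genes by 0.26 in sub-polysomal and 0.0961 in polysomal RNA, 5 genes were lower in each pool, and 5 were lower in sub-polysomal RNA without METTL7A1 replicate E. Over all genes tested, 3834 passed the wider rule in either direction in sub-polysomal and 2197 in polysomal RNA. These numbers were 3950 and 1729 with Actb scaling, and 2472 in sub-polysomal RNA without METTL7A1 replicate E. They join both directions, and the share of all genes that was lower in these settings is not given here. The change in the list count can therefore not be read as particular to this list.

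The aminoacyl-tRNA synthetases, which charge tRNAs and are induced through ATF4, were higher in polysomal than in sub-polysomal RNA by the wider rule in 11 of 13 cases in mock and 13 of 13 in METTL7A1 cells, against 23.3% and 30.0% of all genes, with median log2 changes of 0.84 and 1.13. Genes with a CDS of at least 2000 nt had medians of 0.50 and 0.61, and the synthetases were not matched for CDS length. Against mock cells 5 of the 13 were lower in METTL7A1 sub-polysomal RNA (Eprs, Tars, Cars, Sars and Gars, the last named after its value was seen), against 14.5% of all genes, with a median of -0.42 over the list. Eprs fell by 1.08 on the log2 scale (standard error 0.18, adjusted p = 0.000288 from edgeR), and had a log2 change of -0.27 in polysomal RNA (adjusted p = 0.296 from edgeR). In polysomal RNA 2 of the 13 were lower (Cars and, named after its value was seen, Aars), against 8.28% of all genes, with a median of -0.21. That count was 0 when libraries were scaled to the Actb count or without METTL7A1 replicate D or F, and 1 without mock replicate A or METTL7A1 replicate E. Over all genes, 2197 passed in either direction in polysomal RNA, 1729 with Actb scaling and from 1098 to 2553 without single replicates. In sub-polysomal RNA 3 synthetases were lower when libraries were scaled to the Actb count. There 3950 of all genes passed in either direction (3834 in the main fit), and the share that was lower is not given here.

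Of 15 ATF4 targets in secretion and stress, 12 were tested, of which 2 were higher and 4 lower in sub-polysomal RNA and 3 were higher and 3 lower in polysomal RNA. The shares of all genes were 16.8% higher and 14.5% lower in sub-polysomal and 9.69% higher and 8.28% lower in polysomal RNA, and the same shares stand beside the counts of the lists that follow. Cdkn1a, the cell cycle inhibitor p21, rose by a log2 of 1.03 and 0.59, and Nupr1, a small stress-induced nuclear protein, had log2 changes of -1.13 and -0.86, all past the wider rule. In polysomal RNA Sqstm1, an autophagy receptor, rose by 0.62, and Map1lc3b, which encodes a component of autophagosomes, had a log2 change of -0.66. Named after their values were seen, Vldlr, a lipoprotein receptor, had log2 changes of -2.98 and -3.82, Ndrg1 rose by 0.47 and 0.44, and Ero1l (-0.58) and Herpud1 (-0.41) passed in sub-polysomal RNA. Among relatives of the members, of which 8 were tested, 2 rose and 3 fell in sub-polysomal RNA and 2 rose and 2 fell in polysomal RNA. Trib1, a relative of Trib3, rose in both pools by 0.86 and 0.91 where Trib3 fell. Gadd45b rose by 0.93 and 0.66. Sesn1 had log2 changes of -1.41 and -0.85, and Gadd45a one of -0.78 in sub-polysomal RNA. Trib2, named after its value was seen, had log2 changes of -2.22 and -1.90.

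Factors that act upstream of ATF4 were read by the same rule. Among the 4 eIF2 kinases the smallest adjusted p in sub-polysomal RNA was that of Eif2ak2, or PKR (log2 change -0.54, adjusted p = 0.0522 from edgeR). Eif2ak3, which encodes PERK, the kinase that senses the endoplasmic reticulum, had log2 changes of 0.00 in sub-polysomal and 0.56 in polysomal RNA (adjusted p = 0.07 from edgeR). Of the 8 subunits of eIF2 and eIF2B, Eif2s1, which encodes the subunit that is phosphorylated, fell by 0.45 on the log2 scale in sub-polysomal RNA (standard error 0.15, adjusted p = 0.0243 from edgeR), and the other 7 did not pass. Of the 4 other phosphatase subunits, the catalytic subunit Ppp1cc had a log2 change of -0.41 in sub-polysomal RNA (adjusted p = 0.0367 from edgeR). Ppp1r15b, the constitutive relative of Ppp1r15a, had 0.09 and 0.29 and did not pass. Of 11 factors of start selection and reinitiation, 2 rose and 2 fell in sub-polysomal RNA and 1 rose and 1 fell in polysomal RNA. Eif5b, which joins the ribosomal subunits at the start codon, fell by 0.86 in sub-polysomal RNA (standard error 0.17, adjusted p = 0.000834 from edgeR), Mcts2 rose by 0.63 and 0.52, and Eif1a rose by 0.51 in sub-polysomal RNA. The others were Eif2d (-0.49 in polysomal RNA) and, named after its value was seen, Eif5 (-0.52 in sub-polysomal RNA).

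Among 12 other bZIP factors that can pair with ATF4 or act beside it, 5 rose and 4 fell in sub-polysomal RNA, and 5 rose and 3 fell in polysomal RNA. Batf3 rose by a log2 of 2.54 in sub-polysomal (standard error 0.28, adjusted p = 3.81e-06 from edgeR) and 1.95 in polysomal RNA (standard error 0.33, adjusted p = 0.000448 from edgeR). Its polysomal level was low, at 1.69 ± 0.89 CPM in mock and 6.65 ± 2.30 CPM in METTL7A1 cells (SD, n = 3 each). Atf3, itself an ATF4 target, rose by 1.24 and 1.17, and Xbp1 by 0.81 and 0.71. Jdp2 had log2 changes of -0.74 and -0.85. Named after their values were seen, Atf2 (-0.42) and Cebpb (0.77) passed in sub-polysomal and Atf6 (0.45) in polysomal RNA. Cebpg, Cebpd and Cebpa were named in the same way. Cebpg had -0.41 and -0.44. Cebpd averaged under 5 CPM and rose by 2.18 (standard error 0.35) and 1.06 (standard error 0.30). Cebpa had -2.41 (standard error 0.89, adjusted p = 0.0456 from edgeR) and -2.28 (standard error 0.76, adjusted p = 0.0436 from edgeR). Batf3 mRNA was also low in polysomal RNA, with log2 changes between the pools of -1.92 in mock and -2.52 in METTL7A1 cells.

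The ATF6 and XBP1 branches of the unfolded protein response raise the folding machinery of the endoplasmic reticulum. In this list of 15 genes, all tested, 4 rose and 2 fell in sub-polysomal RNA, against 16.8% and 14.5% of all genes, and 9 rose and 1 fell in polysomal RNA, against 9.69% and 8.28%. The medians were 0.19 and 0.68. Hsp90b1, the chaperone GRP94, rose from a mean of 559 ± 65.7 CPM in mock to one of 1533 ± 270 CPM in METTL7A1 polysomal RNA (SD, n = 3 each), a log2 change of 1.45 (standard error 0.19, adjusted p = 3.13e-05 from edgeR). Sdf2l1, a partner of the chaperone BiP, rose by 1.69 in sub-polysomal and 1.19 in polysomal RNA, and the secreted factor Manf by 1.07 and 0.97. Creld2 rose in polysomal RNA by 1.02. The median log2 shift to polysomes of the list was 0.60, where that of the 9 mRNAs was -0.54 and that of all genes -0.01. By the wider rule 0 of the 15 passed for the shift, which was above 0 for 11 of them. The shift was 0.90 for Hsp90b1 (adjusted p = 0.138 from edgeR) and 0.65 for Creld2. It was -0.50 for Sdf2l1 and -0.11 for Manf. In sub-polysomal RNA Hyou1 (0.73) and Pdia6 (-0.56), named after their values were seen, also passed. Ern1, which encodes the sensor IRE1 and was also named after its values were seen, fell in both pools (log2 changes of -0.96 and -0.54).

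Of 12 other mRNAs for which uORFs have been described, 2 rose and 6 fell in sub-polysomal RNA, and 2 fell in polysomal RNA (Amd1 and Cebpa) by the wider rule in edgeR. Their median log2 change between the pools was 0.13 in mock and 0.46 in METTL7A1 cells. Amd1, an enzyme of polyamine synthesis, fell by 1.53 on the log2 scale in sub-polysomal (adjusted p = 8.36e-06 from edgeR) and by 0.76 in polysomal RNA (adjusted p = 0.00373 from edgeR). Mdm2 fell in sub-polysomal RNA by 0.62. Of the pair that rose, Cebpb, named after its value was seen, had 0.77. Slc35a4 rose by 0.85 in sub-polysomal RNA (adjusted p = 0.00271 from edgeR), had a log2 change of 0.21 in polysomal RNA (adjusted p = 0.506 from edgeR), and was lower in the polysomal pool by log2 changes of -0.97 in mock and -1.61 in METTL7A1 cells.

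The exons of 3 members overlap genes on the opposite strand, and the strand setting of the counting is not given in the sources used here. Nup62, which overlaps Atf5, had 92.1 to 151 CPM and log2 changes between the pools of 0.14 in mock and -0.36 in METTL7A1 cells, and it was higher in METTL7A1 sub-polysomal RNA by 0.39 (adjusted p = 0.0454 from edgeR). Mars, which overlaps Ddit3, had 37.8 to 106 CPM and log2 changes between the pools of 0.66 and 1.10, opposite in sign to those of Ddit3. Tulp2, which overlaps Ppp1r15a, had at most 0.197 CPM. Whether reads were shared with Nup62 or Mars was not tested.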

How the data were processed

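The 12 RNA-Seq libraries came from both gradient pools of mock and METTL7A1 4T1 cells. The deposited values are raw counts per gene, which the authors obtained from stranded, rRNA-depleted libraries by aligning the reads to mm10 with STAR and counting them with featureCounts (version 2.5.3a of STAR is listed in the submitters' processing notes). The strand setting and the handling of reads that match several genes are not given in the sources used here. The members, lists and rules were chosen with earlier results of these data known, so the counts over lists are descriptions.

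The filter on low counts asked for 1 CPM or more in 3 or more libraries (12224 genes). Counts were scaled with TMM factors and tested with edgeR 4.0.16 (quasi-likelihood test, R 4.3.3), with 1 mean per group over all 12 libraries and Benjamini-Hochberg adjustment over these genes. Calls required an adjusted p below 0.01 and a log2 change beyond 1.5. The study gives these thresholds for its RNA-Seq of total RNA, mock against METTL7A1 cells, and they were applied here to the gradient pools. Log2 CPM used a prior count of 2. Intervals are 95% and, like the p-values, cover the fitted spread between replicates. At these depths 3 counts equal between 0.431 and 1.65 CPM. Per-length levels divide CPM by the gene length in the count file.

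Letters are shared by the pools of a line, and the labels do not say whether a letter marks a shared culture or gradient. Deviations from the group means correlated between pools of the same letter with r between -0.29 and 0.11. Such correlations cannot show that the pools were unpaired. The main fit did not use the letters as pairs, and a fit with a replicate block is given below. The script was checked on simulated counts. Leaders and CDS were read from GENCODE M21 (GRCm38), whose spans matched the count file for all 9 genes, and promoters from RefSeq GRCm38.p6, with a promoter for each of the 9.

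Genes named by rule were the 9 members, Mettl7a1, the 5 genes most like Atf4, and from each list the genes past an adjusted p of 0.05 for the shift or, where there were none, up to 4 genes with a mean of at least 5 CPM and the smallest p between the lines. Other list genes were named after their values were seen, as the text says, and were not held to the limit of 5 CPM. Alternatives were RLE factors, TMM within each pool, Actb scaling, DESeq2 1.42.0, limma-voom (limma 3.58.1), other filters on low counts, fits of the compared groups only, a wider threshold, the replicate block and leaving out each replicate.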

Additional observations from a re-analysis of the deposited data

How the results depend on the processing

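Members called between the pools numbered 2 in mock cells and 0 with TMM factors within each pool. In METTL7A1 cells they numbered 3, 2 with TMM within each pool and 4, with Chac1, with Actb scaling. Over all genes 923 were called in mock cells, and 983 with TMM within each pool. In METTL7A1 cells 1480 of all genes were called, 1786 with TMM within each pool and 1737 with Actb scaling. Without single replicates all genes called ran from 688 to 1125 in mock and from 1221 to 1537 in METTL7A1 cells. The members called then numbered 2 to 3. By the wider rule the count was 5 in mock and 6 in METTL7A1 cells (3 as reported). It was 6 between the lines in sub-polysomal RNA (0 as reported, and 1, Atf5, with Actb scaling) and 3 in polysomal RNA (1 as reported). With a replicate block on the letters, which were not taken as pairs, 2 members were called in mock, 3 in METTL7A1 cells and 0 for the shift, the same numbers as reported, and the count over all genes was 816 in mock (923 as reported) and 1383 in METTL7A1 cells (1480 as reported).

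Values near 0 changed sign. With TMM within each pool Ddit4 was 0.40 in mock and 0.35 in METTL7A1 cells, Trib3 0.29 and Sesn2 0.41 in METTL7A1 cells. In mock cells Ddit4 was 0.014 with limma-voom and 0.026 with no filter. With Actb scaling Asns was 0.027 and Sesn2 0.035 between the lines in sub-polysomal RNA, and the shift of Asns was -0.15. Leaving out replicates, Ddit4 ranged from -0.17 to 0.10 in mock and from -0.16 to 0.034 in METTL7A1 cells, and Sesn2 from -0.17 to 0.14 in METTL7A1 cells. Between the lines Sesn2 ranged from -0.41 to 0.039 in sub-polysomal RNA, and in polysomal RNA Atf4 from -0.33 to 0.070 and Ddit3 from -0.20 to 0.52. The shift ranged from -0.087 to 0.27 for Asns and from -0.19 to 0.079 for Ddit4.

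In the list counts, recomputed by a choice made after seeing the data, amino acid supply genes lower in METTL7A1 cells numbered 5 in each pool with Actb scaling, and 5 to 9 in sub-polysomal RNA when replicates were left out. Synthetases numbered 3 and 0 with Actb scaling, and 0 to 2 in polysomal RNA when replicates were left out. All genes that passed in either direction numbered 3950 and 1729 with Actb scaling (3834 and 2197 in the main fit). With replicates left out they ran from 2472 to 3647 in sub-polysomal and from 1098 to 2553 in polysomal RNA. These totals join both directions, and the share of all genes that was lower in each setting is not given here. The cause of these moves was not tested. Of 643 values recomputed for single members under the first rule, 615 kept their sign and their side of it, 3 lost a call, 3 gained one (Ddit3 in mock without mock replicate C, and with Actb scaling Chac1 in METTL7A1 cells and Atf5 in sub-polysomal RNA) and 22 changed sign. Sesn2, with 9 counts in the sub-polysomal RNA of mock replicate A, could not be fitted under the filter of 10 counts in every library.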
